A study of Mus musculus with 10 samples.

Results

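The 37 genes described here encode proteins that sense DNA damage, repair it or hold the cell cycle while it is repaired. They were chosen by name as a set of recombination, Fanconi anaemia, mismatch repair and checkpoint genes, out of 54408 genes counted in the series. All 37 were among the 13081 genes with enough counts to be tested.

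RNA was measured in CD8 T cells sorted from mouse tumours. The cells were P14 cells, which carry a transgenic receptor for the gp33 peptide, and the tumours were subcutaneous B16-gp33 melanomas, a mouse line that expresses that peptide. The tested cells, called NFAT5 KO, were floxed for Nfat5 on both alleles and carried 1 copy of a CD4-Cre transgene (NFAT5flox/flox CD4-Cre+/-). The cells called WT were floxed for Nfat5 as well but had no Cre (CD4-Cre-/-), so that neither group had an unmodified Nfat5 gene and Cre itself was present in NFAT5 KO cells alone. The Cd4 promoter is active while T cells develop, so the gene was open to deletion before activation and transfer. Cells of C57BL/6 background were activated in culture for 48 hours, 5000000 were transferred into tumour-bearing mice, and tumour CD8 T cells were sorted after 7 days. The 5 NFAT5 KO libraries are named 678_3, 678_5, 678_6, 679_2 and 679_6. The 5 of WT cells are named 678_2, 678_4, 679_3, 679_4 and 679_5, and values of each group are given in this order. No age or sex of the animals was given. Whether the libraries came from different mice is not stated, and p-values therefore measure only how much these libraries vary, which may be partly technical.

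NFAT5 is a transcription factor known for the response to osmotic stress. Double-strand breaks are detected by the MRE11-RAD50-NBS1 complex, their ends are cut back to single strands, and BRCA2 and its helpers prepare the strand that copies the lost stretch from the sister chromatid. The Fanconi anaemia pathway opens crosslinked DNA at stalled forks, while the kinases ATM and ATR, through CHK2 and CHK1, delay the cell cycle. Recombination genes are largely transcribed in the S and G2 phases of dividing cells, and activated T cells use this machinery when they divide rapidly.

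Promoters of some of these genes are known to hold binding letters for E2F factors, which drive S-phase genes, and for NF-Y, which binds CCAAT. Promoter windows in RefSeq's table for GRCm38.p6, which run from 250 bases before to 50 bases after a transcription start, were found for 30 of the 37 genes (33 windows). The letters TTTGGCGC, TTTCGCGC, TTTCCCGC or TTTGGCGG, common forms of an E2F site, occurred on either strand in 9 of the 33 windows (27.3%), against 2.37% of all 32851 windows. The following stretches show these letters in capitals, as read on the gene's strand (the capitals of Chek2, Brca2 and Topbp1 are the reverse complement of the searched letters).

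Bard1 (chr1:71103147-71103221, minus strand): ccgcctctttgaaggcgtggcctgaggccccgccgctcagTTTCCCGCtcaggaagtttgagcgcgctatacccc

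Chek2 (chr5:110839791-110839878, plus strand): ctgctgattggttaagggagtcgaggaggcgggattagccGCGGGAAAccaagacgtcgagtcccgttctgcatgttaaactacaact

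Brca2 (chr5:150522413-150522500, plus strand): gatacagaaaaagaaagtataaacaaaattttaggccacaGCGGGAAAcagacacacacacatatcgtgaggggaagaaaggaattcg

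Topbp1 (chr9:103305158-103305214, plus strand): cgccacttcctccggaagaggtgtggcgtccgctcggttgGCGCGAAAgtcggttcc

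The CCAAT box occurred in 48.5% of the 33 windows and in 37.4% of all windows. It is shown in capitals (ATTGG where it lies on the other strand) for 4 genes that were lower in NFAT5 KO cells and for Atrip, whose level was nearly the same in both genotypes. Overlaps between searched letters were counted under each of them.

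Rad51ap1 (chr6:126939588-126939663, minus strand): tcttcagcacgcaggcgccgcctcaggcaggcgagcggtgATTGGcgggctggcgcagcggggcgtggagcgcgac

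Rad54l (chr4:116123696-116123780, minus strand): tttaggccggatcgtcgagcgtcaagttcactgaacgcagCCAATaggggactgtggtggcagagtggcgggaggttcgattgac

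Brip1 (chr11:86201194-86201267, minus strand): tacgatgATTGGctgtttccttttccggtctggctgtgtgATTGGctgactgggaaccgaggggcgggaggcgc

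Fanca (chr8:123318577-123318639, minus strand): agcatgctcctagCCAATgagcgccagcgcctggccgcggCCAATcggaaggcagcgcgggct

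Atrip (chr9:109074125-109074174, minus strand): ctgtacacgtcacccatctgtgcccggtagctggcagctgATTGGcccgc

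About as many of the 37 genes were lower in NFAT5 KO cells as were not called, and the genes of strand exchange, BRCA1 complexes and the Fanconi pathway had the lowest medians. 18 fell, none rose and 19 did not pass the test (edgeR quasi-likelihood test, Benjamini-Hochberg adjusted p below 0.05 over all genes tested). Of all genes tested, 5.63% were called lower and 3.38% higher. The log2 fold change of NFAT5 KO over WT was below 0 for 35 of the 37 genes, with a median of -1.19 and a range of -3.17 to 0.19, while the median of all genes tested was 0.02. Every NFAT5 KO library lay below every WT library for 16 of the 37, and for 6.41% of all genes tested. 13 of the 18 called genes were at least 2-fold lower. In sorted cells sequenced in bulk, fewer cells that express a gene and less RNA per cell cannot be told apart.

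**Figure D1:**
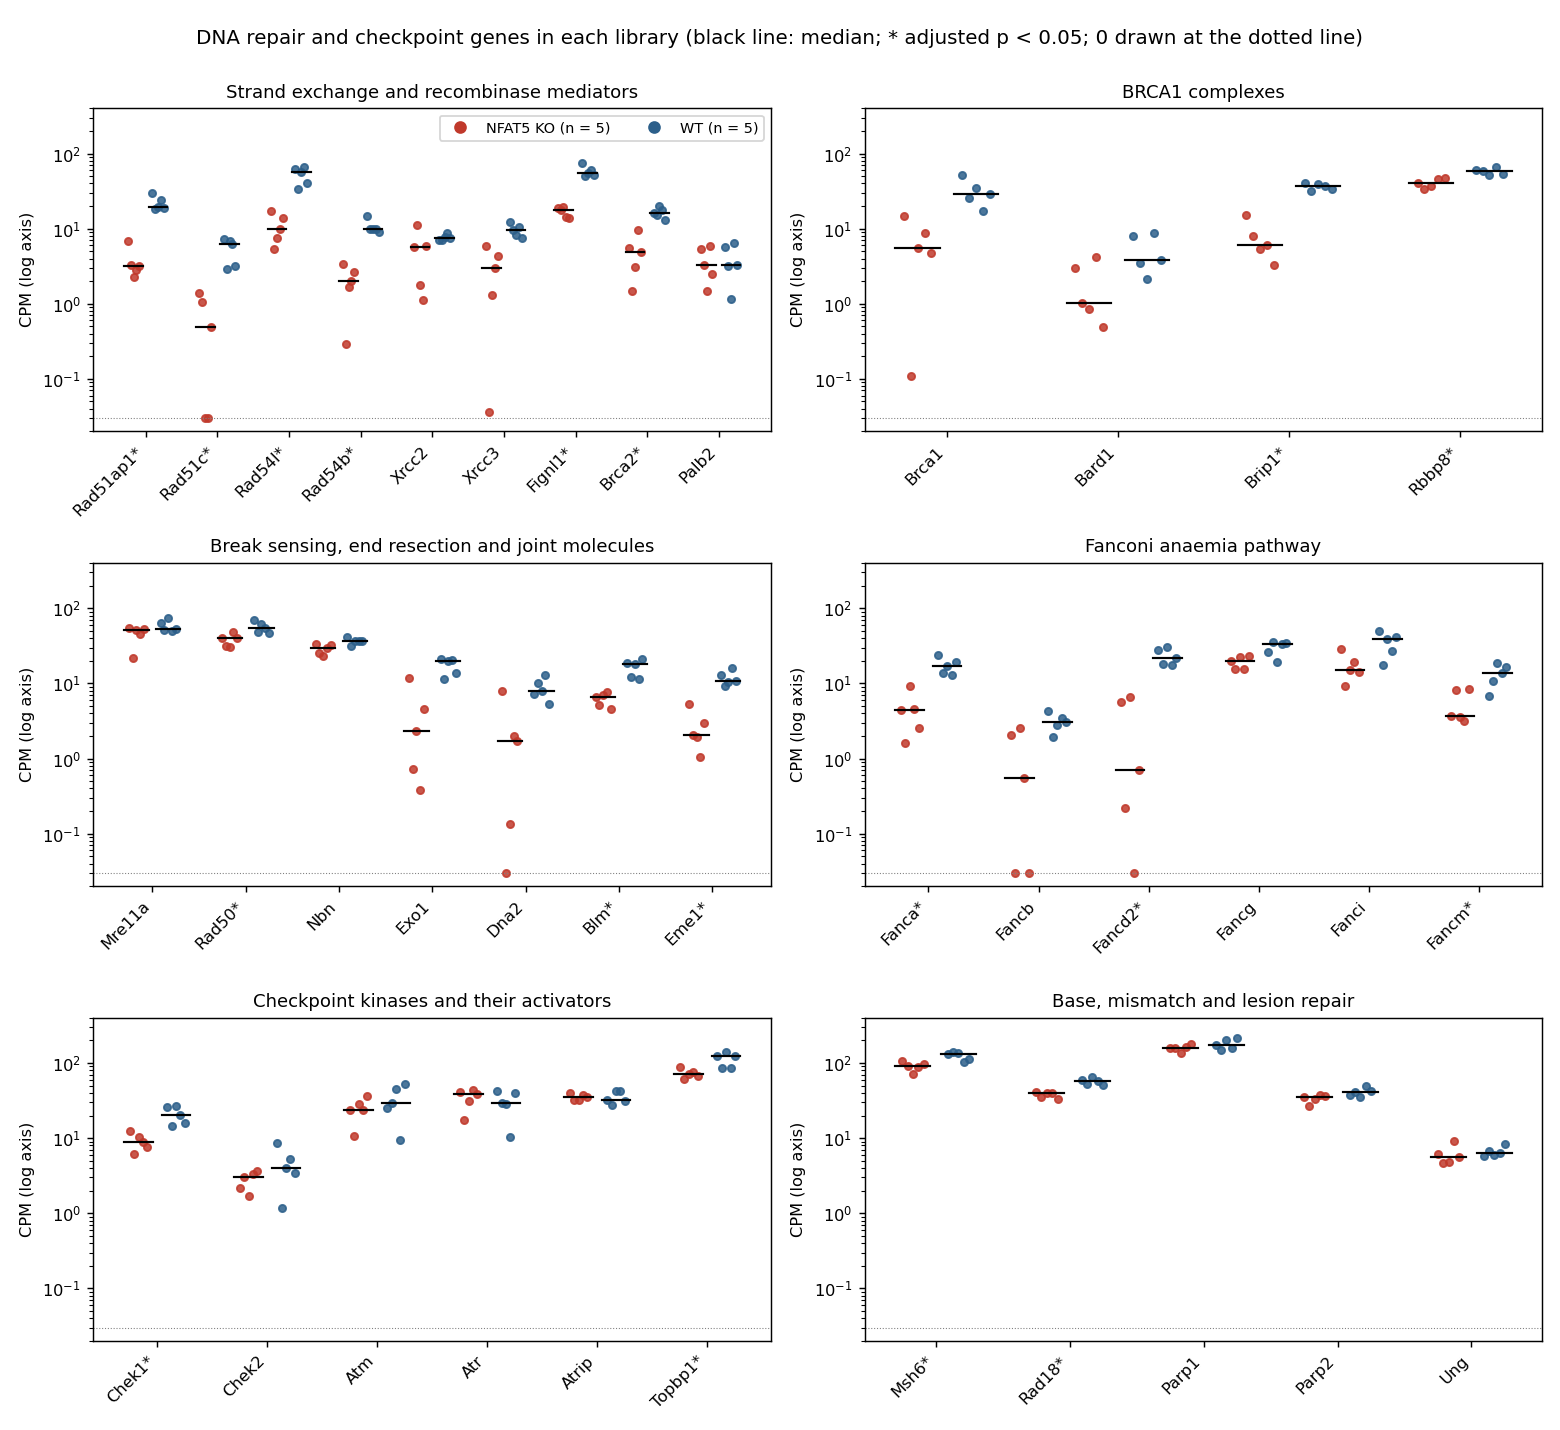
Level in CPM (log axis) of the 37 genes in each library, grouped by role, NFAT5 KO (red, 5 libraries) to the left of WT (blue, 5 libraries), with the median as a black line. Rad51ap1, Fignl1 and Brip1 separate the genotypes in every library, whereas Parp1, Atrip and Ung overlap.

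Libraries held 22444310 to 32001285 estimated counts, and levels are given in CPM, in which the counts of every library are brought to one total. The targeted gene, Nfat5, had 12.2, 12.6, 11.6, 26.7 and 11.9 CPM in NFAT5 KO libraries and 18.0, 17.2, 18.3, 9.20 and 14.2 CPM in WT libraries (log2 fold change -0.04, SE 0.27, edgeR adjusted p = 0.957). The groups overlapped, and a count per gene does not separate the floxed part from the rest, so that this does not check the genotype labels. All 10 T cell markers were detected, at a summed 10059 to 10447 CPM in NFAT5 KO and 9054 to 10115 CPM in WT libraries, and 2 of them were called higher in NFAT5 KO cells. Their mean log2 CPM was 9.78 in NFAT5 KO and 9.64 in WT libraries, with every NFAT5 KO library above every WT library (two-sided exact permutation test, p = 0.0079, the smallest that 5 against 5 libraries allow). The melanoma markers summed to 0.916 to 3.79 CPM in NFAT5 KO and 1.19 to 4.27 CPM in WT libraries, with Sox10, Gpr143, Slc45a2 and Oca2 at 0 everywhere. The 12 macrophage markers summed to 36.5 to 81.8 CPM in NFAT5 KO and 71.0 to 153 CPM in WT libraries, with overlap. None of them was at 0 in every library. Their mean log2 CPM was -0.37 in NFAT5 KO and 1.65 in WT libraries (two-sided exact permutation test, p = 0.0317), and 1 of 9 tested was called lower. B cell markers summed to 232 to 294 CPM in NFAT5 KO and 279 to 654 CPM in WT libraries. Their mean log2 CPM was -1.12 in NFAT5 KO and -0.49 in WT libraries (same exact test, p = 0.0079), and 1 of 2 tested was called lower. NK cell markers summed to 46.3 to 71.9 CPM in NFAT5 KO and 70.6 to 92.1 CPM in WT libraries. Their mean log2 CPM was 1.3 in NFAT5 KO and 2.0 in WT libraries (same exact test, p = 0.0238). Of 3 NK cell markers tested, 2 had a log2 fold change below 0, 1 was called lower and the highest was at 0.41. Pax5 and Ncr1 were at 0 everywhere. Dendritic cell markers went the other way in their sums, at 1076 to 1859 CPM in NFAT5 KO and 936 to 1247 CPM in WT libraries. Their mean log2 CPM was -0.18 in NFAT5 KO and -0.31 in WT libraries (same exact test, p = 0.667). Of 8 listed, 4 were tested, 0 were called and 0 had a log2 fold change below 0 (median 0.75). With so low a mean log2 CPM, few genes held most of this sum, and likewise in the B cell list (2 of 7 tested). The sums of the dendritic cell and B cell lists therefore do not measure how many such cells were present. With the macrophage mean as a covariate, Rad51ap1 and Fignl1 alone of the 37 passed the test, and 0.359% of all genes tested were called lower. The macrophage mean itself differed between the genotypes, so this fit cannot fully tell the genotype from that mean. With the melanoma mean 11 of the 18 passed, against 4.3% of all genes tested, and Rad51c, Rbbp8, Rad50, Fancd2, Fancm, Topbp1 and Msh6 did not. The part of other cells in the result was not tested further.

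Strand exchange genes had the largest share of calls, with 6 of 9 lower and a median log2 fold change of -1.80. Rad51ap1 (chromosome 6, 126923050 to 126939587 in GRCm38) encodes a protein that helps homologous DNA strands join. It had 6.76, 3.26, 2.24, 2.77 and 3.20 CPM in NFAT5 KO libraries, against 30.2, 18.4, 19.3, 24.0 and 19.0 CPM in WT libraries. No library of one genotype reached into the range of the other, and the log2 fold change was -2.60 (SE 0.30, edgeR adjusted p = 0.000353). Fignl1, which encodes an AAA ATPase of homologous recombination, had the smallest SE of the 9. It had 19.0, 17.5, 19.6, 14.3 and 13.8 CPM in NFAT5 KO libraries and 73.9, 49.6, 55.9, 60.7 and 52.4 CPM in WT libraries, a log2 fold change of -1.80 (SE 0.15, edgeR adjusted p = 0.000116). Its highest NFAT5 KO library lay well under its lowest WT library.

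The DNA translocases RAD54L and RAD54B remodel chromatin during the homology search, and the genes of both were lower. Rad54l (chromosome 4, 116094264 to 116123690) had 17.3, 5.31, 7.62, 9.90 and 13.7 CPM in NFAT5 KO libraries and 61.6, 34.1, 56.9, 65.4 and 39.9 CPM in WT libraries. Rad54b, on the same chromosome, was scarcer, at 3.38, 0.293, 1.66, 2.02 and 2.65 CPM in NFAT5 KO libraries and 14.7, 9.78, 9.84, 9.91 and 8.89 CPM in WT libraries. Neither gene overlapped between genotypes, and their log2 fold changes of -2.26 (SE 0.30, edgeR adjusted p = 0.000838) and -2.41 (SE 0.46, edgeR adjusted p = 0.00646) lay within 1 SE of each other. Rad54l shares its locus with Lrrc41 on the opposite strand (89.5 CPM on average), and since the strand setting of the counting is not given, some of its reads could belong to that gene.

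Brca2 (chromosome 5, 150522630 to 150570329) encodes a central mediator of strand exchange, and Palb2 encodes its link to BRCA1. Brca2 was counted at 5.46, 1.47, 3.09, 9.52 and 4.92 CPM in NFAT5 KO libraries and 16.1, 15.3, 19.9, 17.6 and 13.0 CPM in WT libraries, without overlap (log2 fold change -1.74, SE 0.38, edgeR adjusted p = 0.0139). Palb2 had 5.38, 3.26, 1.48, 5.89 and 2.46 CPM in NFAT5 KO libraries and 5.74, 3.13, 1.15, 6.47 and 3.28 CPM in WT libraries. Its groups covered nearly the same range, with a log2 fold change of -0.10 (SE 0.49, edgeR adjusted p = 0.932). The log2 ratio of Brca2 to Palb2 within a library averaged 0.29 ± 0.77 in NFAT5 KO and 2.07 ± 0.92 in WT libraries (SD, n = 5 each), a difference of -1.78, with no overlap (two-sided exact permutation test, p = 0.00794, adjusted p = 0.0397 over 10 pairs).

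Rad51c, Xrcc3 and Xrcc2, whose products assist strand exchange, did not share one pattern. Rad51c (chromosome 11, 87376645 to 87404954) had 1.39, 1.06, 0, 0 and 0.485 CPM in NFAT5 KO libraries, against 7.27, 2.93, 6.94, 6.17 and 3.15 CPM in WT libraries. The groups did not overlap, but the gene was rare, and its log2 fold change of -3.17 (SE 0.92, edgeR adjusted p = 0.0496) passed in 1 of 10 fits that each left out 1 library, that without NFAT5 KO 678_3 (adjusted p = 0.0387, and up to 0.116 in the others). It was also lost with the label prefix as a block (0.0622), with a length offset (0.0735) and with no low-count filter (0.062). A transcript annotated for nonsense-mediated decay held 41.8% to 66.2% of its deposited TPM in the NFAT5 KO libraries with any TPM of the gene and 53.1% to 77.4% in WT libraries. Protein-coding transcripts held up to 58.2% in NFAT5 KO libraries and up to 22.65%, with a median of 0.376%, in WT libraries. Their median in NFAT5 KO libraries was 0%, with libraries without any TPM of the gene counted as 0. Xrcc3 had 5.87, 0.0366, 1.30, 3.01 and 4.27 CPM in NFAT5 KO libraries and 12.1, 9.57, 8.15, 10.6 and 7.53 CPM in WT libraries. These groups did not overlap either, yet the spread among NFAT5 KO libraries left it outside the threshold (log2 fold change -1.72, SE 0.68, edgeR adjusted p = 0.141, and 0.0408 without NFAT5 KO 678_5), and it shares its locus with Klc1 on the opposite strand. Xrcc2 had 5.66, 11.4, 1.79, 1.13 and 5.92 CPM in NFAT5 KO libraries and 7.01, 6.98, 7.80, 8.80 and 7.44 CPM in WT libraries. Here NFAT5 KO 678_5 was above every WT library, and the log2 fold change was -0.55 (SE 0.49, edgeR adjusted p = 0.543).

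Of the 4 genes of BRCA1 complexes, Brip1 and Rbbp8 fell, and the median log2 fold change was -1.82. Brip1 (chromosome 11, 86058138 to 86201193) encodes a helicase that binds BRCA1. It had 15.4, 7.98, 5.38, 6.10 and 3.27 CPM in NFAT5 KO libraries and a narrow 40.6, 32.2, 39.0, 37.4 and 33.4 CPM in WT libraries (log2 fold change -2.26, SE 0.33, edgeR adjusted p = 0.00134). NFAT5 KO 678_3, the highest of its group, was still under every WT library. Rbbp8, whose product CtIP starts end resection, changed less, with 41.0, 33.3, 37.4, 46.5 and 47.3 CPM in NFAT5 KO libraries and 60.0, 58.2, 51.7, 66.4 and 52.7 CPM in WT libraries. The groups were separate at a log2 fold change of -0.49 (SE 0.12, edgeR adjusted p = 0.0278), and the call was lost without WT 678_2, WT 679_4 or NFAT5 KO 678_6 (adjusted p up to 0.0697).

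Brca1 and Bard1, whose products form a ubiquitin ligase together, had large differences that missed the threshold. Brca1 (chromosome 11, 101488764 to 101551955) had 15.0, 0.110, 5.51, 8.87 and 4.79 CPM in NFAT5 KO libraries and 51.3, 25.8, 34.5, 17.0 and 29.0 CPM in WT libraries. It did not overlap between genotypes, but NFAT5 KO 678_5 was far below the rest of its group, and the log2 fold change was -2.20 (SE 0.67, edgeR adjusted p = 0.0605). Without that library or NFAT5 KO 678_3 the gene was called lower (adjusted p as low as 0.0114), as it was with the DESeq2 Wald test and with limma-voom (adjusted p = 0.0486 and 0.0135). Bard1 had 3.02, 1.03, 0.852, 4.25 and 0.485 CPM in NFAT5 KO libraries and 8.08, 3.51, 2.17, 8.73 and 3.81 CPM in WT libraries. NFAT5 KO 678_3 and 679_2 lay above the lowest WT library (log2 fold change -1.45, SE 0.60, edgeR adjusted p = 0.166).

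**Figure D2:**
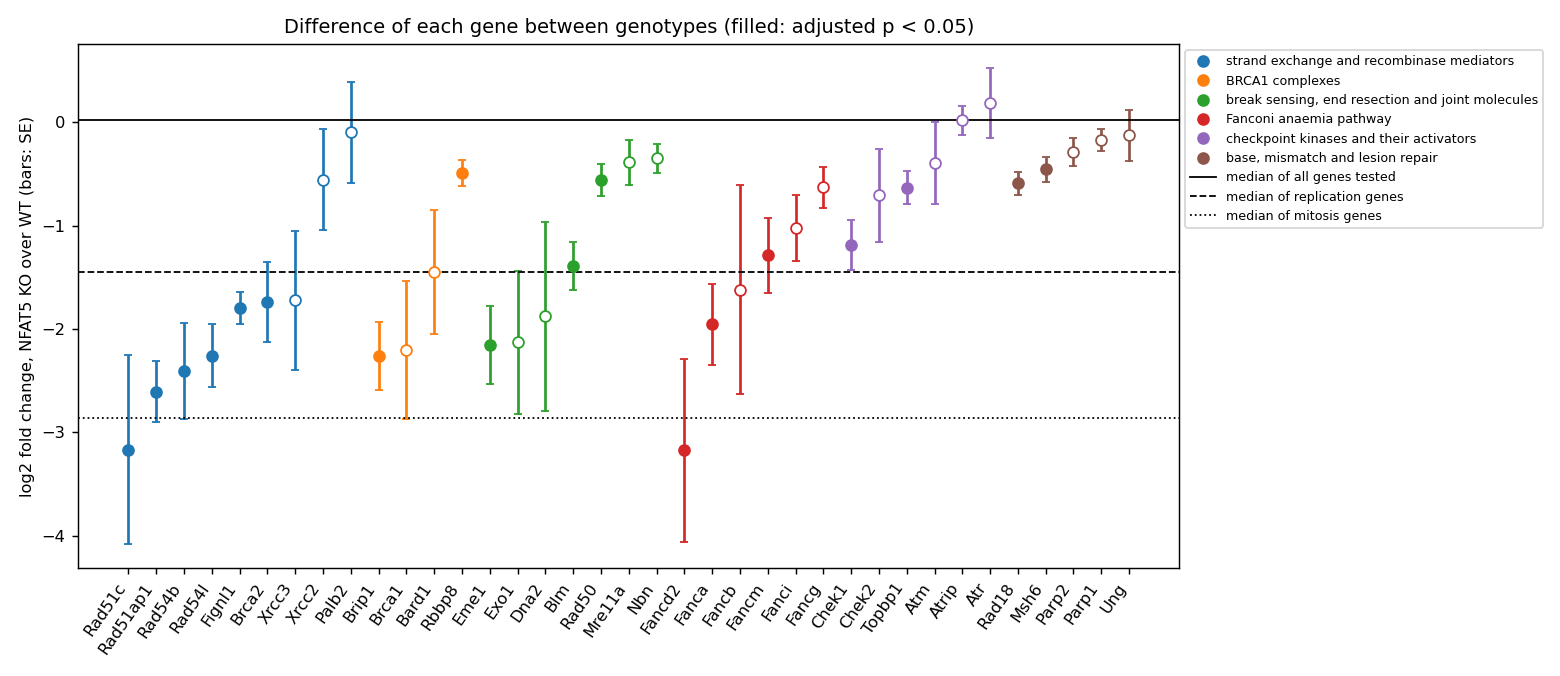
Log2 fold change (NFAT5 KO over WT) of each of the 37 genes with its standard error, coloured by role and filled where the adjusted p was below 0.05. Horizontal lines mark the medians of all genes tested (0.02), of 18 replication genes (-1.45) and of 18 mitosis genes (-2.86).

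Among 7 genes of break sensing, end resection and joint molecules, 3 fell. The genes of the sensor complex had small differences. Rad50, the ATPase of the complex, had 40.6, 31.8, 30.4, 48.9 and 40.8 CPM in NFAT5 KO libraries and 70.9, 48.9, 61.9, 54.5 and 47.4 CPM in WT libraries (log2 fold change -0.56, SE 0.16, edgeR adjusted p = 0.0456). NFAT5 KO 679_2 overlapped the lower WT libraries, and the call held in 3 of 10 fits with 1 library left out, those that left out WT 678_4, WT 679_5 or NFAT5 KO 679_2 (adjusted p up to 0.118 in the others). It was also lost with the label prefix as a block (0.0672), a length offset (0.105) or no low-count filter (0.0513). Mre11a, the nuclease, had 54.3, 21.9, 50.9, 44.9 and 52.9 CPM in NFAT5 KO libraries and 63.4, 51.6, 74.9, 50.3 and 53.6 CPM in WT libraries, and Nbn, the subunit that recruits ATM, had 33.6, 25.3, 23.3, 29.5 and 32.4 CPM in NFAT5 KO libraries and 41.8, 31.1, 36.97, 36.8 and 36.9 CPM in WT libraries. Both overlapped, with log2 fold changes of -0.39 (SE 0.22, edgeR adjusted p = 0.315) and -0.35 (SE 0.14, edgeR adjusted p = 0.141).

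Blm and Eme1 were lower by larger amounts. Blm (chromosome 7, 80454733 to 80535119) encodes a helicase that dissolves joined recombination intermediates. It had 6.56, 5.13, 7.08, 7.71 and 4.53 CPM in NFAT5 KO libraries and 18.5, 12.3, 18.3, 11.4 and 21.0 CPM in WT libraries, without overlap (log2 fold change -1.39, SE 0.23, edgeR adjusted p = 0.00288). Eme1, the partner of the nuclease MUS81, had 5.30, 2.09, 1.93, 1.06 and 2.98 CPM in NFAT5 KO libraries and 12.8, 9.23, 10.4, 16.2 and 10.8 CPM in WT libraries (log2 fold change -2.15, SE 0.38, edgeR adjusted p = 0.00376). Its groups were separate, but it overlaps Lrrc59 on the opposite strand, a gene counted at 195.5 CPM on average against 7.28 CPM for Eme1.

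The long-range resection nucleases Exo1 and Dna2 varied widely in NFAT5 KO cells. Exo1 had 11.9, 0.732, 2.33, 0.377 and 4.50 CPM in NFAT5 KO libraries and 20.9, 11.5, 19.9, 20.2 and 14.0 CPM in WT libraries, and Dna2 had 7.94, 0, 0.134, 2.02 and 1.72 CPM in NFAT5 KO libraries and 7.27, 9.98, 7.83, 12.9 and 5.39 CPM in WT libraries. In both, NFAT5 KO 678_3 alone reached the WT range. The log2 fold changes were -2.13 (SE 0.69) and -1.88 (SE 0.91), with edgeR adjusted p-values of 0.0767 and 0.240. Without NFAT5 KO 678_3 both were called lower (adjusted p = 0.00738 and 0.0461).

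In the Fanconi anaemia pathway 3 of 6 genes fell, with a median log2 fold change of -1.45. Fanca (chromosome 8, 123268300 to 123318576), Fancb and Fancg encode parts of the core ubiquitin ligase complex, and Fancm the translocase that brings it to DNA. Fanca had 4.48, 1.61, 9.19, 4.62 and 2.56 CPM in NFAT5 KO libraries and 23.7, 13.9, 17.0, 13.0 and 19.2 CPM in WT libraries, with no overlap (log2 fold change -1.95, SE 0.39, edgeR adjusted p = 0.00831). Fancm had 3.71, 8.24, 3.59, 3.12 and 8.51 CPM in NFAT5 KO libraries and 6.74, 10.6, 18.7, 13.7 and 16.7 CPM in WT libraries, where WT 678_2 lay within the NFAT5 KO range (log2 fold change -1.29, SE 0.36, edgeR adjusted p = 0.0448, called in 4 of 10 fits with 1 library left out, those without NFAT5 KO 678_5, NFAT5 KO 679_6, WT 678_2 or WT 678_4, and at up to 0.104 in the others). The Fancm call was also lost with the label prefix as a block (adjusted p = 0.0931) and with a length offset (0.273). The other core genes were not called. Fancg had 15.4 to 23.2 CPM in NFAT5 KO and 19.1 to 35.2 CPM in WT libraries (log2 fold change -0.63, SE 0.20, edgeR adjusted p = 0.0674, and 0.0243 without WT 679_3). Fancb, the rarest, was at 0 in NFAT5 KO 678_5 and 679_6 and at 0.548 to 2.51 CPM in the other NFAT5 KO libraries, against 1.94 to 4.27 CPM in WT libraries (log2 fold change -1.62, SE 1.01, edgeR adjusted p = 0.371).

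FANCD2 and FANCI form the clamp that the core complex ubiquitinates, and their transcripts differed by unequal amounts. Fancd2 (chromosome 6, 113531682 to 113597017) had 5.58, 0.220, 6.50, 0 and 0.712 CPM in NFAT5 KO libraries, against 28.0, 18.0, 30.5, 17.4 and 21.5 CPM in WT libraries. The NFAT5 KO libraries split between 3 below 1 CPM and 2 above 5 CPM, all under the WT range, and the log2 fold change was -3.17 (SE 0.88, edgeR adjusted p = 0.0423). It was called in the fits without NFAT5 KO 678_3, 678_6 or 679_2, and not in the other 7 that left out 1 library (adjusted p up to 0.0943), nor without a low-count filter (0.11). Fanci had 28.8, 9.23, 14.9, 19.5 and 14.0 CPM in NFAT5 KO libraries and 50.5, 17.5, 39.4, 27.4 and 41.0 CPM in WT libraries, with overlap (log2 fold change -1.02, SE 0.32, edgeR adjusted p = 0.0671), and was called without NFAT5 KO 678_3 or WT 678_4 (adjusted p as low as 0.0215). The log2 ratio of Fanci to Fancd2 was 3.21 ± 1.59 in NFAT5 KO and 0.54 ± 0.39 in WT libraries (SD, n = 5 each), 2.67 higher in NFAT5 KO cells (two-sided exact permutation test, p = 0.00794, adjusted p = 0.0397 over 10 pairs). With 0.5 CPM added to each gene its size depends on that pseudocount where Fancd2 is near 0, and the difference ran from 1.75 with 2 CPM to 3.48 with 0.1 CPM. Fanci shares its locus with Polg on the opposite strand (63.2 CPM on average).

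**Figure D3:**
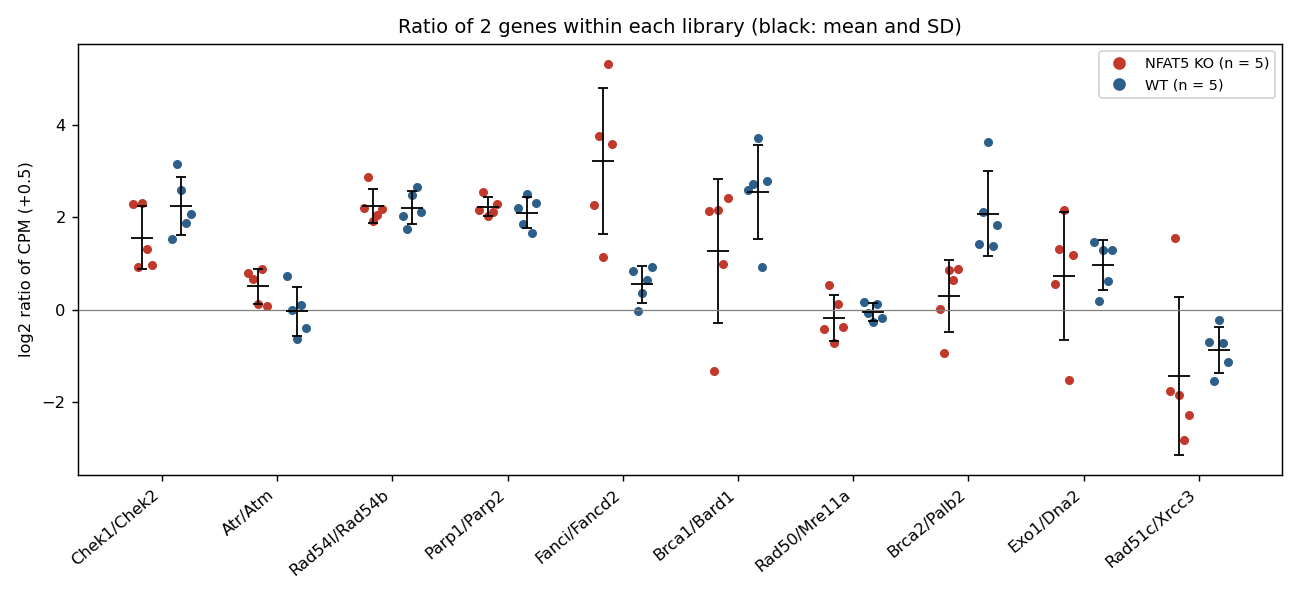
Log2 ratio of the CPM (0.5 added) of 10 gene pairs within each library, NFAT5 KO (red) to the left of WT (blue), with mean and SD in black. Fanci/Fancd2 and Brca2/Palb2 do not overlap between genotypes, and the other 8 pairs do.

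With any 1 library left out both pairs kept an unadjusted p of 0.0159, the smallest that 9 libraries allow, which is 0.0529 or 0.0794 adjusted over the 10 pairs (exact permutation test). The other 8 pairs had adjusted p-values of 0.265 to 0.881 by the same exact test. For the checkpoint kinases, the log2 ratio of Chek1 to Chek2 was 1.56 ± 0.68 in NFAT5 KO and 2.24 ± 0.63 in WT libraries, and that of Atr to Atm was 0.51 ± 0.38 in NFAT5 KO and -0.04 ± 0.52 in WT libraries (SD, n = 5 each). The Rad54l to Rad54b ratio, at 2.24 ± 0.37 in NFAT5 KO and 2.20 ± 0.36 in WT libraries, differed by less than the spread between libraries. So did Parp1 to Parp2, at 2.22 ± 0.20 in NFAT5 KO and 2.10 ± 0.34 in WT libraries. A p above the threshold does not show that a ratio was equal.

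Of the 6 checkpoint genes, Chek1 and Topbp1 fell, and the median log2 fold change was -0.51. Chek1 (chromosome 9, 36708482 to 36727065) encodes the kinase that ATR activates at stalled forks. It had 12.4, 6.15, 10.3, 8.94 and 7.61 CPM in NFAT5 KO libraries and 25.6, 14.4, 26.7, 20.5 and 16.1 CPM in WT libraries, with no overlap (log2 fold change -1.19, SE 0.24, edgeR adjusted p = 0.00793). Topbp1, which activates ATR, had 87.9, 60.7, 71.8, 75.5 and 67.9 CPM in NFAT5 KO libraries and 125.4, 86.1, 141.0, 85.6 and 125.6 CPM in WT libraries. NFAT5 KO 678_3 lay just above the lowest WT libraries (log2 fold change -0.63, SE 0.16, edgeR adjusted p = 0.0242), and the call was lost without NFAT5 KO 678_6, NFAT5 KO 679_6, WT 678_2, WT 679_3 or WT 679_5 (adjusted p up to 0.0613).

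The kinases at the top of the checkpoint were not called. Atr had 41.0, 17.3, 30.8, 44.1 and 38.8 CPM in NFAT5 KO libraries and 42.9, 29.4, 28.5, 10.2 and 39.9 CPM in WT libraries (log2 fold change 0.19, SE 0.34, edgeR adjusted p = 0.792). Its partner Atrip had 39.9, 32.3, 32.6, 37.2 and 35.8 CPM in NFAT5 KO libraries and 32.4, 28.0, 41.9, 42.0 and 31.4 CPM in WT libraries, with the NFAT5 KO libraries inside the WT range (log2 fold change 0.02, SE 0.14, edgeR adjusted p = 0.957). These were the only genes of the 37 with a log2 fold change above 0, and Atrip overlaps Trex1 on the same strand. Atm, the kinase for double-strand breaks, ran from 10.7 to 36.7 CPM in NFAT5 KO and from 9.47 to 52.5 CPM in WT libraries, and Chek2, its target kinase, from 1.70 to 3.62 CPM in NFAT5 KO and from 1.19 to 8.54 CPM in WT libraries. Their log2 fold changes were -0.39 (SE 0.40, edgeR adjusted p = 0.604) and -0.70 (SE 0.45, edgeR adjusted p = 0.381), so the SE was too large to settle differences of this size.

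Base, mismatch and lesion repair genes had the median nearest to 0, at a log2 fold change of -0.29, and 2 of 5 fell. Rad18 (chromosome 6, 112619850 to 112696686) encodes the ubiquitin ligase that starts translesion synthesis at the clamp PCNA. It had 40.6, 35.2, 40.3, 40.4 and 33.6 CPM in NFAT5 KO libraries and 59.2, 52.4, 66.2, 57.3 and 51.1 CPM in WT libraries, a small and even difference without overlap (log2 fold change -0.59, SE 0.11, edgeR adjusted p = 0.00556). Msh6, a mismatch sensor, had 107.7, 92.5, 72.1, 88.2 and 95.8 CPM in NFAT5 KO libraries and 132.5, 140.3, 137.2, 104.0 and 112.2 CPM in WT libraries (log2 fold change -0.46, SE 0.12, edgeR adjusted p = 0.0341). NFAT5 KO 678_3 lay above WT 679_4, and the call held in 4 of 10 fits with 1 library left out, those without NFAT5 KO 678_3, NFAT5 KO 678_5, WT 679_4 or WT 679_5 (adjusted p up to 0.0803 in the others).

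Parp1 and Parp2, which mark strand breaks with poly(ADP-ribose), and Ung, which removes uracil from DNA, overlapped between genotypes. Parp1 ran from 138.0 to 179.3 CPM in NFAT5 KO and from 150.8 to 214.4 CPM in WT libraries, Parp2 from 26.9 to 37.5 CPM in NFAT5 KO and from 35.5 to 49.96 CPM in WT libraries, and Ung from 4.69 to 9.08 CPM in NFAT5 KO and from 5.71 to 8.45 CPM in WT libraries. Their log2 fold changes were -0.17 (SE 0.11), -0.29 (SE 0.13) and -0.13 (SE 0.25), and none passed the test (edgeR adjusted p = 0.384, 0.212 and 0.815).

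Levels of different genes were compared in TPM, which scales reads by transcript length. Parp1, at 50.1 ± 5.59 TPM in NFAT5 KO and 56.5 ± 8.93 TPM in WT libraries, and Parp2, at 39.7 ± 16.7 TPM in NFAT5 KO and 48.9 ± 10.3 TPM in WT libraries, headed the order in both genotypes (SD, n = 5 each), and the spread of Parp2 did not separate it from Parp1. Topbp1 was next, at 23.0 ± 2.64 TPM in NFAT5 KO and 34.6 ± 8.97 TPM in WT libraries. Its spread overlapped that of Parp2 above it and of several genes below it in both genotypes. Among these were Msh6, Mre11a and Rbbp8 in both, and Atrip in NFAT5 KO cells. Rad51ap1 was in place 19 in NFAT5 KO (3.86 ± 2.68 TPM) and place 10 in WT cells (21.5 ± 5.26 TPM), and Brip1 in place 28 in NFAT5 KO (1.76 ± 1.11 TPM) and place 17 in WT cells (8.96 ± 0.660 TPM). Atrip, at 22.1 ± 2.87 TPM in NFAT5 KO and 19.7 ± 2.69 TPM in WT cells, stood in place 5 in NFAT5 KO and place 13 in WT cells. Bard1 (0.375 ± 0.322 TPM in NFAT5 KO, 0.985 ± 0.513 TPM in WT) and Fancb (0.365 ± 0.417 TPM in NFAT5 KO, 1.12 ± 0.284 TPM in WT) were at the bottom in both and not separated from each other. TPM sums all annotated transcripts of a gene, and for Brca2 protein-coding transcripts held a median of 16.5% of it in NFAT5 KO and 20.9% in WT libraries, with overlap. For Parp2 they held a median of 36.4% in NFAT5 KO and 39.0% in WT libraries, also with overlap. A Parp2 transcript annotated with a retained intron held 41.6% on average, so the place of Parp2 counts transcripts that are not protein-coding.

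**Figure D4:**
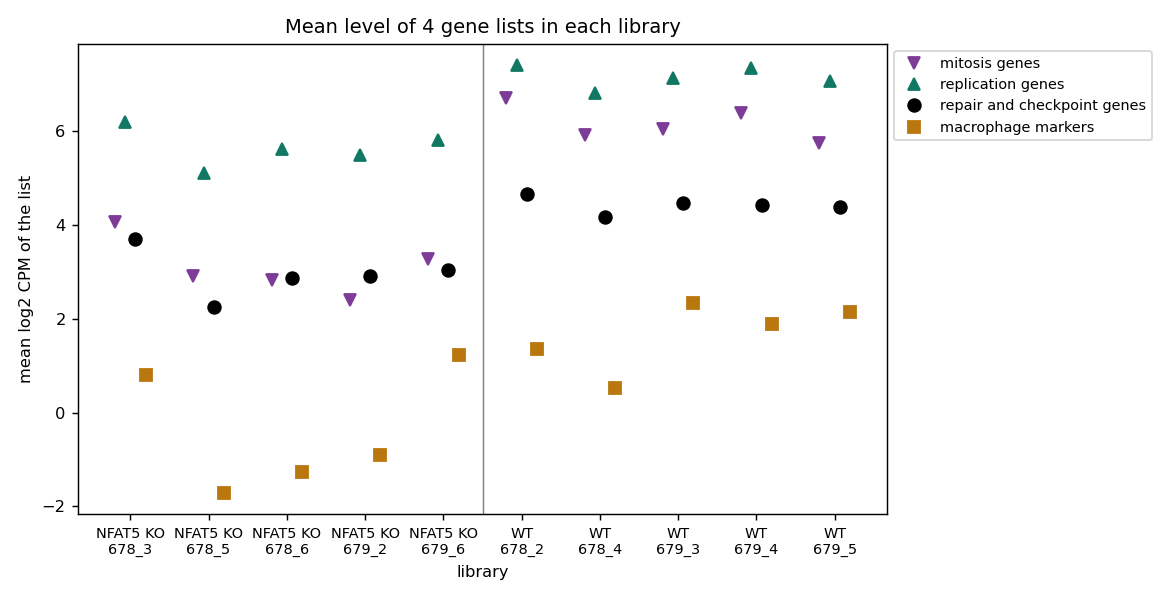
Mean log2 CPM of 4 gene lists in each library, NFAT5 KO libraries to the left of the vertical line and WT libraries to the right. The 37 repair and checkpoint genes, the replication genes and the mitosis genes are lower in every NFAT5 KO library than in any WT library, and the macrophage markers overlap.

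The libraries differed in how low the set was. The mean log2 CPM of all 37 genes was 3.70, 2.25, 2.86, 2.91 and 3.03 in NFAT5 KO libraries and 4.65, 4.16, 4.45, 4.41 and 4.38 in WT libraries. NFAT5 KO 678_3 was the highest of its group, and NFAT5 KO 678_5 held the lowest value of all 10 libraries for 15 of the 37 genes. WT 678_2 held the highest for 14. The mean of 18 mitosis genes was likewise highest among NFAT5 KO libraries in 678_3, at 4.06 against 2.91, 2.82, 2.40 and 3.26 in the others, and among WT libraries in 678_2, at 6.70 against 5.91, 6.03, 6.37 and 5.75. With the mitosis mean as a covariate none of the 37 genes passed and their median was -0.20 (edgeR, 2 of the 37 at an unadjusted p below 0.05, and none of all genes tested was called lower). The mitosis mean itself differed between the genotypes (3.09 in NFAT5 KO, 6.15 in WT, exact permutation test, p = 0.0079), so this fit cannot tell the genotype from the mitosis mean.

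Titles of the libraries start with 678 (3 NFAT5 KO, 2 WT) or 679 (2 NFAT5 KO, 3 WT), a prefix that the labels do not explain. Of all 37 genes, 36 had a log2 fold change below 0 within prefix 678 and 34 within prefix 679. The 18 called genes were below 0 within each prefix, but they were selected as lower in these same libraries. Taken alone, prefix 679 called 7 of the 37 lower and 1.82% of all genes tested, with a median log2 fold change of -1.19 for the 37. Prefix 678 alone called no gene among all tested (edgeR), and the median of the 37 was -1.04. At an unadjusted p below 0.05 it had 18 of the 37, and 853 lower and 596 higher among 13747 genes tested. With the prefix as a block 15 of the 37 were called, against 4.85% of all genes tested, and the calls of Rad51c, Rad50 and Fancm were lost. No gene passed an edgeR test of a genotype difference that varied with prefix, in which Fancd2 had the smallest p of the set (log2 fold change of -2.50 within prefix 678 and -5.99 within prefix 679, unadjusted p = 0.0523, adjusted p = 0.9998).

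Other repair genes, listed by pathway, were mostly not called. Of 120 tested, 18 fell and none rose, with a median log2 fold change of -0.14. Among all genes tested the shares called were 5.63% lower and 3.38% higher. In homologous recombination 5 of 24 fell, among them Mcm8, a helicase, and Rmi2, a partner of BLM (-1.93 and -1.51). In the Fanconi pathway 3 of 11 fell, Ube2t, Rfwd3 and Usp1 (-1.19, -0.58 and -0.44), which act in adding or removing ubiquitin. Of the other checkpoint genes 7 of 16 fell, among them Timeless and Tipin, which protect the fork (-1.28 and -1.12), and the damage-marked histone gene H2afx (-0.90).

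In non-homologous end joining none of 12 genes passed (median -0.04, with Xrcc6, a Ku subunit, at -0.23, edgeR adjusted p = 0.238, the smallest p there). None of 19 nucleotide excision repair genes passed (median 0.11, with Ercc4, a nuclease subunit, at 0.34, edgeR adjusted p = 0.108). Neil3, a DNA glycosylase, fell (-2.48, 1 of 19 base excision genes), as did Zranb3, a fork remodeller (-3.18, 1 of 13 translesion and reversal genes). Single calls in these 2 lists are near the 5.63% of all genes tested that were called lower. The other repair genes that fell also include a call in a list not reported here. For comparison, all 18 replication genes fell, among them Mcm2 and Mcm4, helicase subunits (-1.19 and -1.16), and Rrm2, a subunit of ribonucleotide reductase (-2.31). All 18 mitosis genes fell too, among them Nusap1, a spindle protein, and the kinase genes Aurkb and Cdk1 (-2.93, -3.04 and -2.63). The median of the 37 genes, -1.19, lay nearer to the -1.45 of the replication list than to the -2.86 of the mitosis list.

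**Figure D5:**
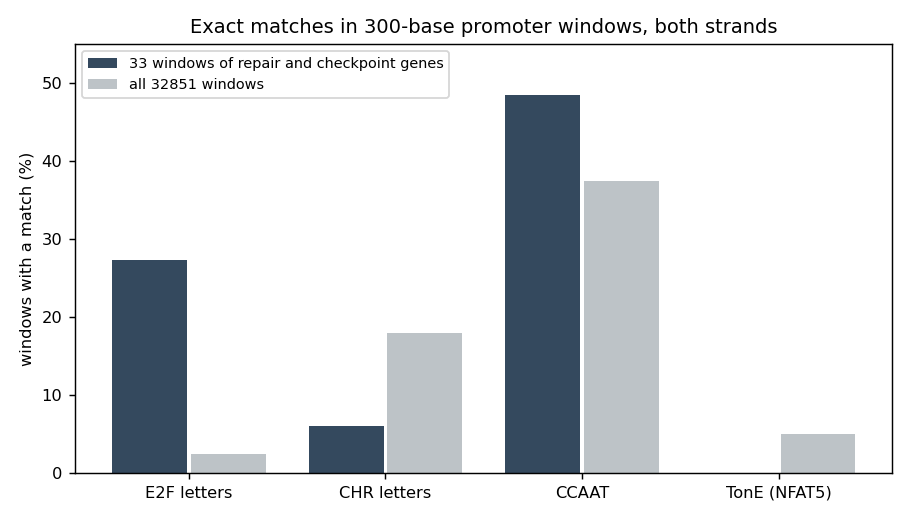
Share of promoter windows with an exact match on either strand for 4 sets of letters, in 33 windows of the repair and checkpoint genes and in all 32851 windows. The E2F letters are in 27.3% against 2.37%, the CHR letters in 6.06% against 17.9%, CCAAT in 48.5% against 37.4% and TonE in none against 4.96%.

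Genes with E2F letters had a median nearer to 0 than those without, and genes with CCAAT or CHR letters one further from 0. E2F letters were in the windows of 5 of 14 genes called lower (Rad51c, Brca2, Chek1, Topbp1 and Msh6) and of 3 of 16 others (Bard1, Chek2 and Fancg). The median log2 fold change was -0.95 for the 8 genes with these letters and -1.34 for the genes without them. CCAAT was in the windows of 7 of the 14 called genes and 8 of the 16 others (median -1.39 with it and -1.02 without), Brip1 among them with 3 copies, and in that of Atrip, which was not called. The cell-cycle CHR letters (TTTGAA), bound by complexes that act in G2, were found for Bard1 and Eme1 alone (median -1.80, against -1.105 without), in 6.06% of these windows and in 17.9% of all windows. TonE, the element that NFAT5 binds, matched none of the 33 windows and 4.96% of all windows. At the share of all windows, 33 windows would hold few matches. Bases outside the windows were not searched, and binding was not tested. The windows of the set had a median GC content of 60.0%, against 52.7% in all windows, and the part of base composition in these shares was not tested.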

How the data were processed

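The authors deposited 1 transcript table per library with estimated counts, TPM and effective length, per the file headers, made with Salmon 0.14.1 on GRCm38.p6 (mm10), per the submitters' processing notes. The strand setting and annotation release were not given in the sources used here. Transcripts were matched to GENCODE M21 (140045 of 140919, 99.38%), and their counts were added up by gene, then rounded.

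NFAT5 KO and WT libraries (5 each) were compared over 13081 genes left by filterByExpr, with TMM scaling and edgeR 4.0.16 (quasi-likelihood, robust, R 4.3.3), a fit that was tested on simulated data. P-values were Benjamini-Hochberg adjusted over all genes, at a threshold of 0.05, and SE is the size of the log2 fold change over the root of its F statistic. CPM uses the TMM totals, and log2 CPM a prior count of 2. Gene pairs and marker lists were compared by exact permutation of the genotype labels, two-sided (smallest p 0.00794). All 37 genes are named, with up to 3 called genes of each other repair list by smallest p. Some genes that this rule took are not reported here, though list counts include them. Members and lists were chosen with earlier results of these data known. The alternatives were other scalings, filters, covariates and tests (limma 3.58.1, DESeq2 1.42.0) and leaving out each library. Counting error is small at 22444310 to 32001285 counts per library, and it limits genes near 0.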

Additional observations from a re-analysis of the deposited data

Results flagged for a closer look

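In 4 of 74 groups of 5 libraries (37 genes in each genotype) 1 library stood apart from the others by more of the group's range than Dixon's 95% critical value allows, and chance flags about 1 in 20 groups. Brca1 was lowest in NFAT5 KO 678_5, at a log2 CPM of -2.458, against 2.28 to 3.91 in the other NFAT5 KO libraries. Mre11a was lowest in the same library, at 4.458 against 5.49 to 5.76. Rad54b was highest in WT 678_2, at 3.886 against 3.16 to 3.32 in the other WT libraries. Atr was lowest in WT 679_4, at 3.363 against 4.84 to 5.43.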

How the results depend on the processing

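The 18 genes called lower became 12 to 20 with 1 library left out, with a median log2 fold change of -1.312 to -1.093, and 11 were called in all 10 such fits. The share of all genes called lower, 5.63% in the reported fit, is given in brackets. It was 0 with prefix 678 alone (0%), 7 with prefix 679 alone (1.82%), 2 with the macrophage marker mean as a covariate (0.359%, median -0.754), 11 with the melanoma marker mean (4.3%) and 0 with the mitosis mean (0%, median -0.199). The DESeq2 Wald test gave 22 (8.27%) and limma-voom 23 (7.01%). The scalings, filters, length offset and prefix block gave 15 to 19 (2.92% to 8.06%), and no fit called any of the 37 higher. The filter of at least 5 CPM in 5 libraries gave 19 (8.06%) of only 32 genes tested, and Rad51c was not tested there. By p adjusted over the 10 gene pairs, 2 passed with each pseudocount and 0 with 1 library left out, where 9 libraries allow no p below 0.0159. At an unadjusted p below 0.05, 4 passed with 2 CPM and 2 to 3 with 1 library left out (exact permutation test).

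Fold changes that turned round did so as follows, and the cause was not tested. With the mitosis covariate the log2 fold changes were 2.165 for Rad51c, 1.048 for Xrcc2, 0.865 for Xrcc3, 1.159 for Palb2, 0.255 for Mre11a, 0.332 for Nbn, 3.675 for Exo1, 1.987 for Dna2, 1.075 for Eme1, 0.433 for Fancb, 0.382 for Fanci, 0.749 for Chek2 and 0.045 for Msh6, none past the threshold. With the macrophage covariate they were 0.041 for Mre11a, 0.211 for Atm and 0.044 for Parp1. Palb2 was at 0.426 with the length offset, 0.188 with prefix 679 alone, 0.177 with the melanoma covariate, 0.020 with limma-voom, and ran from -0.355 to 0.138 with 1 library left out. Atr was at -0.288 with prefix 678 alone and ran from -0.043 to 0.344 with 1 library left out. Atrip was at -0.027 with library size alone, -0.083 with prefix 679 alone, and ran from -0.074 to 0.081 with 1 library left out. Ung was at 0.090 with prefix 679 alone. Of the pairs that did not pass, Rad54l/Rad54b was at -0.414 with 2 CPM (unadjusted p = 0.0476, exact permutation test) and ran from -0.123 to 0.15 with 1 library left out. So did Rad50/Mre11a from -0.299 to 0.016 and Exo1/Dna2 from -0.597 to 0.323, the last at 0.230 with 0.1 CPM. Rad51c, Dna2, Fancb and Fancd2 were at 0 in some NFAT5 KO libraries, where depth limits their fold changes. No paired analysis was possible because the replicate names of the genotypes differ.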
